A study of Mus musculus with 2 samples.

Results

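The Zic and Msx genes are transcription factor genes of the dorsal midline of the neural tube, and 6 of them were examined here: Zic1, Zic2, Zic4, Zic5, Msx1 and Msx2. They were selected by name, as the rows of the gene and transcript tables whose identifier carries one of these symbols in GENCODE M21, and all 6 were found among 43346 measured genes. The RNA came from the midbrain of mouse embryos at 12.5 days, of strain B6NCrl and mixed sex. Replicate 2 was a pool of 88 embryos and replicate 1 a separate pool of 120 embryos, and each gave 1 library, for which 10 ng of RNA over 200 nt was used. Both libraries belong to 1 group, so no treatment or genotype was contrasted, and the only comparison is between the pools. It is given throughout as replicate 2 relative to replicate 1.

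Zic proteins bind DNA through tandem zinc fingers related to those of the Gli and Glis families. They act in dorsal neural tube and neural crest development, and loss of Zic2 in mice disturbs closure of the neural tube and division of the forebrain. Zic1 and Zic4 lie head to head on one chromosome and are known for their joint role in cerebellar growth, and Zic2 and Zic5 form a second head-to-head pair. Msx1 and Msx2 are homeodomain repressors switched on by BMP signals, which in the neural tube come from the roof plate, the thin dorsal midline that also secretes Wnt ligands. Msx1 is also known from the progenitors of midbrain dopaminergic neurons in the ventral midline.

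The coding sequences are shown first because the Zic paralogs resemble each other closely in their DNA-binding domain, which bears on how reads could be divided among them. In each pair below, 120 coding bases of the most abundant transcript (GENCODE M21, 5′ to 3′) are aligned without gaps, and capitals mark the bases at which the partner differs. The stretches lie in the zinc finger region.
Zic1-201: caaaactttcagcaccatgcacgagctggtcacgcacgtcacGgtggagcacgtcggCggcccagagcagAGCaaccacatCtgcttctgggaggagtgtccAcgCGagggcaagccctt
Zic4-201: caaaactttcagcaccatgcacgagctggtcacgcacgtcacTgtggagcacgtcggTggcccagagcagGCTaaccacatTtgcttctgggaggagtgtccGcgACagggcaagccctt
Zic2-201: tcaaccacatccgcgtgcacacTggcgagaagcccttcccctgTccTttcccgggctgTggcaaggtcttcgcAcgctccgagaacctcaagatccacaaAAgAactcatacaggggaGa
Zic5-201: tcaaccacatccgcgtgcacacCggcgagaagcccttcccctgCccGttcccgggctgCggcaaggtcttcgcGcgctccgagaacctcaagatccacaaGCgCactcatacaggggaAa
These were the most similar windows of that length in each pair. Counted from 1 at the first base of the start codon, they begin at coding base 729 of Zic1-201 and 456 of Zic4-201, and at 959 of Zic2-201 and 1313 of Zic5-201. Identity was 92.5% for Zic1 and Zic4, with 9 mismatches, and 92.5% for Zic2 and Zic5, also with 9 mismatches. Over the whole transcripts the longest run of bases shared by a pair was 42 for Zic1 and Zic4, 26 for Zic2 and Zic5, and 22 for Msx1 and Msx2. Across the pairs Zic1 and Zic2 were more alike still, at 93.3% over their best window with 8 mismatches and a longest shared run of 35, and Zic2 and Zic4 shared a run of 30. None of the pairs compared shared a run of 100 bases. The deposited standard deviation of the estimated count, which reflects how surely reads could be assigned to a gene, was 0 in both libraries for Zic1, Zic2, Msx1 and Msx2. For Zic4 it was 6.75 counts in replicate 2 and 8.05 counts in replicate 1, and for Zic5 0.63 counts in replicate 2 and 0.73 counts in replicate 1. Zic4 also shares 468 exon bases with Gm37477, a transcript on the opposite strand that is described below. With 0 for Zic1 and Zic2, the value of Zic4 cannot be read as a measure of its likeness to those paralogs.

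Promoter sequences are shown for the Zic genes because these genes lie in pairs and all 4 had lower levels in replicate 2. Each runs from 250 bases before to 50 bases after the RefSeq start (GRCm38.p6), 5′ to 3′ on the gene's own strand. Capitals mark a match to any of 5 motifs searched on both strands: TATAAA (the TATA box), TAATTG (a homeodomain core), CCTGCTG (a ZIC motif), CTTTGA (a TCF/LEF motif, TCAAAG on the other strand) and GGCGCC (an element bound by BMP-activated SMADs, the same on both strands).
Zic1 (chr9:91365719-91366018, minus strand): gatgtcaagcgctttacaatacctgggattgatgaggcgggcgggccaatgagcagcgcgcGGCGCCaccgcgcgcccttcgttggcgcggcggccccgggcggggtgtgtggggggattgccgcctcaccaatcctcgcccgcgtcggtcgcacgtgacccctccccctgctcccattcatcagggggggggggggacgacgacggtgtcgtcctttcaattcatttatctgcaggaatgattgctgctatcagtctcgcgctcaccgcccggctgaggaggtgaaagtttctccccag
Zic4 (chr9:91368722-91369021, plus strand): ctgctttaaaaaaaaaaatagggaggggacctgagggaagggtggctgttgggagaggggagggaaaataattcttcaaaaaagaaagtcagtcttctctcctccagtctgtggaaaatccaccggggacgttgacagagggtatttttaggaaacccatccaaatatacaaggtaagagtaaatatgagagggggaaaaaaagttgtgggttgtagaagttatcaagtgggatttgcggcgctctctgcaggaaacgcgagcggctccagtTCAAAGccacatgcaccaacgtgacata
Zic5 (chr14:122465609-122465908, minus strand): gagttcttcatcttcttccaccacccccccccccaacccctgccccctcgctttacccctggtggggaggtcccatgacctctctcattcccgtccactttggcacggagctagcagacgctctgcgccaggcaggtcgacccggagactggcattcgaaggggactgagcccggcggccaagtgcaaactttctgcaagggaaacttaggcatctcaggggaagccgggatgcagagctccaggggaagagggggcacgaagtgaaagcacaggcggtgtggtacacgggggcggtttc
The table of promoters held 5 of the 6 genes, all but Zic2. Zic1 carried GGCGCC at position −189, with the start base counted as 1 and no position 0, a motif found in 11.9% of all 32544 promoters. Zic4 carried CTTTGA at position 23, on the opposite strand, and 16.0% of promoters hold that motif. The windows of Zic5, Msx1 and Msx2 held none of the 5 motifs, and TATAAA (13.6% of all promoters), TAATTG (8.01%) and CCTGCTG (10.5%) were absent from all 5 windows. These are matches of letters within 300 bases, and no binding was measured. The Zic1 window held 31 CpG dinucleotides and the Msx1 window 29, more than 89.4% and 87.0% of all promoters. Msx2 had 22 and Zic5 had 15. Zic4 stood lowest with 8, close to the median of 7 over all promoters, and its G and C content of 46% was below the overall median of 53%. In GENCODE M21, Zic4-204, Zic4-207 and Zic4-211 start inside the printed Zic4 window, whereas Zic4-201, its most abundant transcript here, starts at 91378642 on chromosome 9.

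All 6 genes were expressed in both pools. Levels are deposited TPM, an abundance unit scaled to the library and divided by transcript length, and so can be compared between genes. Msx1 stood highest, at 83.76 TPM in replicate 2, against 71.18 TPM in replicate 1, a mean of 77.5 ± 8.90 TPM (SD, n = 2, as for the other means here). It exceeded 84.4% of the 14895 genes at 1 TPM or more in both libraries. Zic4 followed at 36.61 TPM in replicate 2, against 61.65 TPM in replicate 1, a mean of 49.1 ± 17.7 TPM. Msx2 was at 30.01 TPM in replicate 2, against 19.12 TPM in replicate 1, a mean of 24.6 ± 7.70 TPM. At the gene level the values of Msx1, Zic4 and Msx2 did not overlap. The Zic4 level includes retained-intron and processed transcripts, described below. Its protein-coding transcripts alone held 14.61 TPM in replicate 2, against 26.12 TPM in replicate 1. Those of Msx2 held 29.64 TPM in replicate 2, against 18.9 TPM in replicate 1, so on coding transcripts these 2 genes overlapped.

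The other Zic genes were closer together. Zic5 was at 12.90 TPM in replicate 2, against 24.21 TPM in replicate 1, a mean of 18.6 ± 8.0 TPM. Zic2 had 11.69 TPM in replicate 2, against 16.96 TPM in replicate 1, a mean of 14.3 ± 3.73 TPM. Zic1 was lowest, at 9.80 TPM in replicate 2, against 13.84 TPM in replicate 1, a mean of 11.8 ± 2.86 TPM. It still exceeded 39.5% of the 14895 genes at 1 TPM or more in both libraries. The values of Msx2 and Zic5, of Zic5 and Zic2, and of Zic2 and Zic1 overlapped, so those neighbours in the order were not separated by the spread between the pools. Msx2 ranked above Zic5 in replicate 2 and below it in replicate 1, and no other rank differed.

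**Figure D1:**
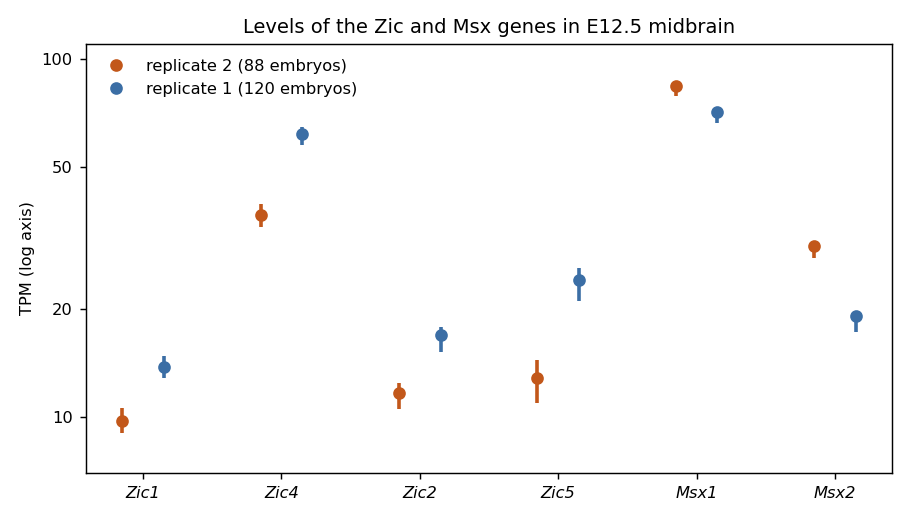
TPM of each gene on a log axis in replicate 2 (left of each pair) and replicate 1; points are deposited TPM and bars the deposited intervals. All 4 Zic genes sit lower and both Msx genes higher in replicate 2, and no gene's intervals overlap.

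The pools differed in opposite directions for the families. The summed level of the Zic genes was 71.0 TPM in replicate 2, against 116.66 TPM in replicate 1. On normalised counts the Zic sum was 1.73-fold lower in replicate 2, a ratio of 0.578 with a 95% exact binomial interval of 0.557 to 0.601. The summed level of the Msx genes was 113.77 TPM in replicate 2, against 90.3 TPM in replicate 1. On normalised counts the Msx ratio was 1.25 (1.20 to 1.31). These intervals, and those of all ratios below, cover counting error only. In bulk tissue, fewer cells of a type and less RNA per cell cannot be told apart.

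The libraries held 37381984 estimated counts in replicate 2 against 29430493 in replicate 1, and over the 7181 genes with a mean of at least 1000 counts the log2 ratios between the pools had an SD of 0.141. Gene by gene, a two-sided exact binomial test on counts with an adjusted p under 0.05 (Benjamini-Hochberg over all 18939 genes tested), at least 1.5-fold and at least 1 TPM, called 3 of the 6 genes, against 3.55% of the 15199 expressed genes. It called 2 lower, Zic4 and Zic5, where 1.41% of all genes were called lower, and 1 higher, Msx2, where 2.14% were called higher. The deposited TPM intervals of the pools stood apart for 6 of the 6 genes, against 16.1% of all genes. Because that test holds only counting error, the exact negative binomial test of edgeR was also run with a dispersion estimated from these same libraries. It called 2 of the 6, Zic4 and Zic5, against 1.32% of all genes. With 1 library per pool, either test compares these libraries and not a condition.

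Zic5 had the largest change in size among the 6 genes, a decrease. It had 1020 estimated counts in replicate 2 against 1594.77 in replicate 1, and was called lower, by 2.02-fold (95% exact interval 1.87 to 2.19), with an adjusted p of 0.000121 in the exact negative binomial test. Of the expressed genes, 0.88% were as far down. Zic4 had 1898.69 estimated counts in replicate 2 against 2651.86 in replicate 1, and was called lower, by 1.80-fold (1.70 to 1.91; exact negative binomial adjusted p of 0.00252). For both, the whole deposited TPM interval in replicate 2 lay below that in replicate 1. With spike-in totals as library sizes the log2 ratio of Zic4 was −0.58 and it was not called.

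Zic1 and Zic2 stood just under the fold threshold and were not called. Zic1 had 1165 estimated counts in replicate 2 against 1331 in replicate 1, which is 1.48-fold lower (1.36 to 1.60; exact negative binomial adjusted p of 0.201). Zic2 had 589 estimated counts in replicate 2 against 678 in replicate 1, which is 1.49-fold lower (1.33 to 1.66; exact negative binomial adjusted p of 0.225). Both intervals include 1.5-fold, and both lie below those of Zic4 and Zic5.

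Msx2 had 1575 estimated counts in replicate 2 against 794 in replicate 1, and was called higher, by 1.54-fold (1.41 to 1.67), in the exact binomial test. In the exact negative binomial test its adjusted p was 0.115. Msx1 had 3440 estimated counts in replicate 2 against 2311 in replicate 1, a ratio of 1.15 (1.09 to 1.22), and it was not called. Of the expressed genes, 27.5% differed by at least as much as Msx1, so its difference is of a common size between these libraries.

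**Figure D2:**
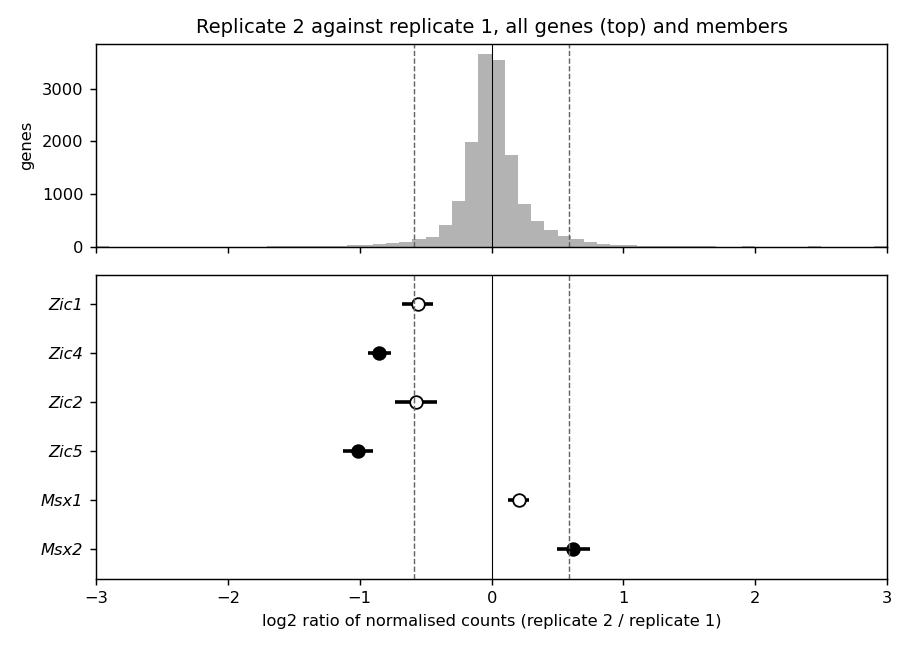
Log2 ratio of normalised counts, replicate 2 over replicate 1, for all 15199 expressed genes (top, number of genes per bin) and for the 6 genes (bottom, with 95% exact binomial intervals). Filled points were called in the exact binomial test and dashed lines mark 1.5-fold; Zic5 and Zic4 lie left of them and Msx2 just right, with Msx1 near the centre of the distribution.

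In the pairs Zic1 and Zic4, and Msx1 and Msx2, the difference in level was larger than the spread between pools; in the pair Zic2 and Zic5 it was close to that spread. On the log2(TPM + 1) scale the level of Zic1 minus that of Zic4 was −1.80 in replicate 2 and −2.08 in replicate 1, a mean of −1.94 ± 0.20 (SD, n = 2). The TPM of Zic4 was thus 3.74 times that of Zic1 in replicate 2 and 4.45 times in replicate 1, over all transcript classes. On protein-coding transcripts alone the levels were closer. Zic4 then had 14.61 TPM against 9.80 TPM for Zic1 in replicate 2, and 26.12 TPM against 13.84 TPM in replicate 1. The level of Msx1 minus that of Msx2 was 1.45 in replicate 2 and 1.84 in replicate 1, a mean of 1.65 ± 0.28. The level of Zic2 minus that of Zic5 was −0.13 in replicate 2 and −0.49 in replicate 1, a mean of −0.31 ± 0.25, and the deposited intervals of the 2 genes overlapped in replicate 2 and not in replicate 1.

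Transcript shares separated Zic4 from the rest. The deposited isoform percent gave most of each other gene to 1 protein-coding transcript, which was the same in both pools. Zic1-201 held 92.76% of Zic1 in replicate 2 and 97.15% in replicate 1, and Zic2-201 held 94.54% in replicate 2 and 94.97% in replicate 1. For the Msx genes, Msx1-201 held 95.27% in replicate 2 and 93.69% in replicate 1, and Msx2-201 held 98.76% in replicate 2 and 98.84% in replicate 1. Zic5-201 held less, 71.96% in replicate 2 and 76.61% in replicate 1, the rest going to Zic5-202, a short processed transcript. Both Zic5 transcripts were lower in replicate 2, Zic5-201 at 9.28 TPM against 18.55 TPM in replicate 1, and Zic5-202 at 3.62 TPM against 5.66 TPM in replicate 1, where its deposited intervals overlapped.

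For Zic4, 9 of 12 annotated transcripts were above 0 in both libraries and 3 were listed at 0. The largest, the protein-coding Zic4-201, held only 27.37% in replicate 2 and 31.70% in replicate 1, with 10.02 TPM in replicate 2, against 19.54 TPM in replicate 1. The retained-intron transcript Zic4-211 came next with 22.39% in replicate 2 and 18.79% in replicate 1. It ends at 91380986, inside Gm37477, which starts at 91380519 and lies on the opposite strand. Its share, and that of its class, therefore depend on how reads were divided between Zic4 and Gm37477. By class, protein-coding transcripts held 39.9% of the Zic4 level in replicate 2 and 42.4% in replicate 1, retained-intron transcripts 38.4% in replicate 2 and 36.2% in replicate 1, and processed transcripts 21.7% in replicate 2 and 21.4% in replicate 1. Each class was lower in TPM in replicate 2. Of the 9 transcripts above 0, 8 had a lower TPM in replicate 2. The other, Zic4-207, was at 3.45 TPM in replicate 2, against 2.65 TPM in replicate 1 with overlapping intervals.

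**Figure D3:**
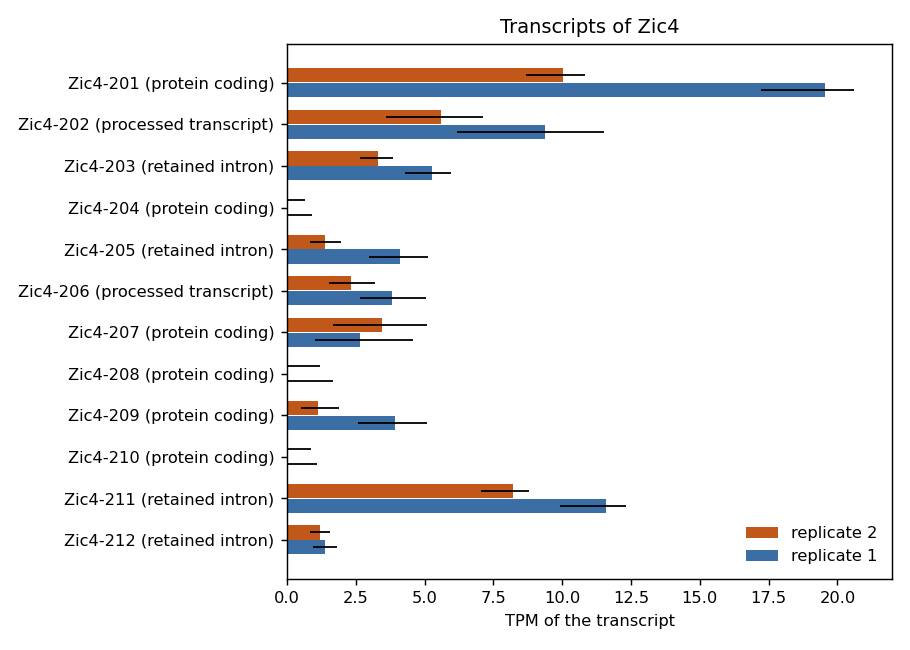
TPM of the 12 annotated Zic4 transcripts in replicate 2 (upper bar of each pair) and replicate 1, with deposited intervals as lines. Zic4-201 is the longest bar in both, at 10.02 TPM in replicate 2, against 19.54 TPM in replicate 1, and retained-intron and processed transcripts carry more of the total between them.

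The genomic surroundings of the Zic pairs were examined next, in mm10 coordinates with GENCODE M21 genes. Zic1 (ENSMUSG00000032368.10) lies at chr9:91358058-91365810 on the minus strand, and Zic4 (ENSMUSG00000036972.10) at chr9:91362413-91389348 on the plus strand. The start of Zic1-201 is 3.202 kb from that of Zic4-204, which was listed at 0, and 12.874 kb from that of Zic4-201. Zic5 (ENSMUSG00000041703.7) lies at chr14:122456795-122465677 on the minus strand and Zic2 (ENSMUSG00000061524.8) at chr14:122475435-122479852 on the plus strand, with starts 9.758 kb apart. Msx1 (ENSMUSG00000048450.10) is at chr5:37820485-37824583 and Msx2 (ENSMUSG00000021469.9) at chr13:53466884-53473074, both on the minus strand.

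Transcripts beside both Zic pairs were called lower in replicate 2 as well. 2610035F20Rik, a processed transcript that starts 236 bases from the Zic2 start on the other strand, had 3.20 TPM in replicate 2, against 9.36 TPM in replicate 1. It was called lower, by 3.24-fold (2.60 to 4.09), in the exact binomial test and in the exact negative binomial test. A730094K22Rik, an unclassified transcript beyond the end of Zic1, had 1.60 TPM in replicate 2, against 5.02 TPM in replicate 1, on 23 counts in replicate 2 and 57 in replicate 1, and was called lower by both tests, by 3.16-fold (1.94 to 5.44). Gm37477, an unclassified transcript inside Zic4, had 5.76 TPM in replicate 2, against 8.71 TPM in replicate 1 and was called lower by the exact binomial test only, by 1.55-fold. Its deposited intervals overlapped, and it shares 468 exon bases with Zic4, so its call is not separate from that of Zic4.

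The remaining annotated genes starting within 20 kb were at low levels or not measured. Gm5089 beyond the end of Zic5 had 1.43 TPM in replicate 2, against 2.13 TPM in replicate 1 and was not called (exact binomial adjusted p of 0.0709). Gm10837 had 0.25 TPM in replicate 2, against 0.55 TPM in replicate 1 and was not called, and Gm9399 was at 0 in both libraries. Gm43763, near Msx1, was not measured, and no other gene started within 20 kb of Msx1 or Msx2. Whether counting used the strand is not given in the sources used here. Gm37477 covers 468 exon bases of Zic4 on the opposite strand, and Zic1 and Zic4 share 60 exon bases. Without strand the reads of those stretches cannot be told apart. Estimated counts in replicate 2 were 1898.69 for Zic4 and 101.31 for Gm37477, against 2651.86 and 121.14 in replicate 1. In each library the fractions of Zic4 and Gm37477 complete each other, so reads were divided between them. As these genes lie on opposite strands, strand did not keep those reads apart in the deposited counts. The lower call of Gm37477 is therefore not separate from that of Zic4. The counts of Zic1 were whole.

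**Figure D4:**
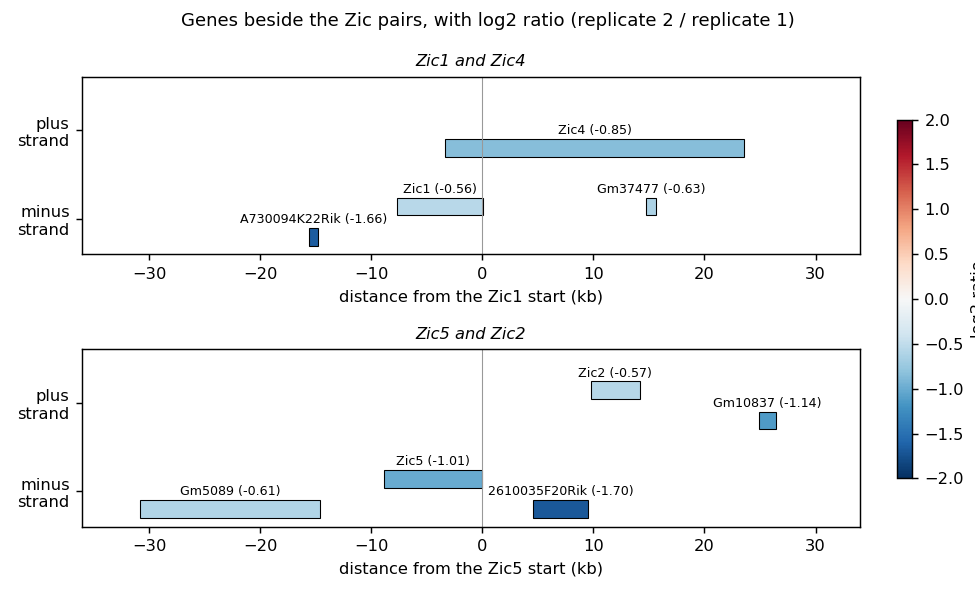
Measured genes around Zic1 and Zic4 (top) and around Zic5 and Zic2 (bottom) by strand, in kb from the Zic1 or Zic5 start, coloured and labelled by log2 ratio of replicate 2 over replicate 1. Every drawn gene is on the blue, lower side, although Zic1, Zic2, Gm5089 and Gm10837 were not called, and 2610035F20Rik has the lowest value, −1.70.

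The related genes Msx3, Gli1, Gli2, Gli3, Glis1 and Glis3 gave 1 call among 6. Msx3, the Msx paralog of the dorsal neural tube, was at 5.66 TPM in replicate 2, against 2.04 TPM in replicate 1, and was called higher, by 2.67-fold, in both tests. Gli3, a zinc finger mediator of Hedgehog signals, was at 33.47 TPM in replicate 2, against 32.90 TPM in replicate 1. Gli3, Gli2, Gli1, Glis1 and Glis3 were not called. The median log2 ratio of these 6 genes was −0.08, beside −0.001 over all expressed genes.

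Among 16 roof plate and dorsal midline genes, 15 reached a mean of 1 TPM, of which 4 were called lower, 1 higher and 10 not called, with a median log2 ratio of −0.16. The genes called lower were Wnt ligands and R-spondins, secreted proteins that raise Wnt signalling. Rspo3 was at 7.45 TPM in replicate 2, against 28.19 TPM in replicate 1, which is 3.86-fold lower. Rspo1 was at 5.66 TPM in replicate 2, against 13.37 TPM in replicate 1, or 2.41-fold lower. Wnt3a, at 1.64 TPM in replicate 2, against 3.01 TPM in replicate 1, and Wnt1, at 7.17 TPM in replicate 2, against 10.55 TPM in replicate 1, were called lower by the exact binomial test and not by the negative binomial test.

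Atoh1, which marks progenitors of the rhombic lip, was called higher at 2.20 TPM in replicate 2, against 0.74 TPM in replicate 1. Lmx1a, a roof plate determinant, was not called at 16.11 TPM in replicate 2, against 12.56 TPM in replicate 1. Whether its RNA came from the roof plate or from other cells was not tested. Pax3, a dorsal progenitor gene, was not called at 51.08 TPM in replicate 2, against 43.17 TPM in replicate 1. Wnt8b, Rspo2, Bmp4, Bmp5, Bmp6, Bmp7 and Pax7 were not called either, and Gdf7, a BMP-family ligand of the roof plate, was under 1 TPM in both pools. The list was thus mixed: Wnt1, Wnt3a, Rspo1 and Rspo3 were called in the direction of Zic4 and Zic5, and Atoh1 in that of Msx2. The negative binomial test of edgeR called 3 of the list, Rspo1 and Rspo3 lower and Atoh1 higher.

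BMP pathway genes, taken as receptors and mediators, response genes and inhibitors, gave 1 call in all, Bmper. The response genes were listed as targets of the pathway and not as inputs to Msx. Whether BMP signals set their levels in this tissue was not tested. Of 8 expressed BMP receptors and mediators, none was called by the exact binomial test or by edgeR, and 6 had an unadjusted exact binomial p under 0.05, as did 36.3% of all expressed genes. Acvr2b, a type II receptor, was at 81.50 TPM in replicate 2, against 84.56 TPM in replicate 1, and Smad1, which carries the BMP signal to the nucleus, was at 49.69 TPM in replicate 2, against 53.14 TPM in replicate 1. Bmpr1a, Bmpr1b, Bmpr2, Acvr1, Acvr2a and Smad5 made up the rest, with Bmpr1b the farthest apart at 6.66 TPM in replicate 2, against 4.64 TPM in replicate 1. Smad9 was under 1 TPM. Of 11 expressed BMP response genes none was called by the exact binomial test or by edgeR, and 5 had an unadjusted exact binomial p under 0.05. Id3, an inhibitor of bHLH factors and a common BMP target, was at 322.39 TPM in replicate 2, against 285.75 TPM in replicate 1, and Id1 at 57.41 TPM in replicate 2, against 52.40 TPM in replicate 1. Id2, Id4, Smad6, Bambi, Hey1, Dlx5, Gata2, Gata3 and Tfap2a were likewise not called, and Dlx3 was under 1 TPM. Of the 11, 5 were on the higher side in replicate 2 and 6 on the lower side. Hey1 was farthest up, at 42.89 TPM in replicate 2, against 30.32 TPM in replicate 1. Dlx5 was farthest down, at 13.03 TPM in replicate 2, against 17.72 TPM in replicate 1. Of 5 expressed BMP inhibitors, Bmper was called higher, at 4.28 TPM in replicate 2, against 2.29 TPM in replicate 1. Nog, Chrd, Fst and Nbl1 were not called. Nbl1 stood just under the fold threshold, with a ratio of 1.49 on normalised counts. It was at 33.72 TPM in replicate 2, against 21.64 TPM in replicate 1. Grem1, Gsc and Cer1 were under 1 TPM.

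The tissue label was checked on midbrain and isthmus genes. Otx2, which specifies forebrain and midbrain, was at 141.78 TPM in replicate 2, against 146.55 TPM in replicate 1, and En1, a midbrain and isthmus gene, at 8.49 TPM in replicate 2, against 5.90 TPM in replicate 1. Cnpy1, at 121.60 TPM in replicate 2, against 77.67 TPM in replicate 1, Pax8 and Fgf17 were called higher and Fgf8 lower among 9 expressed genes of this list, while Dmbx1 was not called and Pax2 was under 1 TPM. By edgeR 0 of the 9 were called, and 8 had an unadjusted exact binomial p under 0.05. Of 9 progenitor genes, led by Vim, Fabp7 and Hes5, only Pax6 was called, and of 8 neuron genes, led by Tubb3, Stmn2 and Ina, none was called by the exact binomial test or by edgeR, and 7 had an unadjusted exact binomial p under 0.05. The median log2 ratio was −0.13 in the progenitor list and −0.12 in the neuron list.

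Markers of neighbouring tissues moved with the pools in both directions, and their part in the Zic and Msx results was not tested. All 17 expressed genes of meningeal and neural crest mesenchyme, cells that also express Msx and some Zic genes, were on the higher side in replicate 2, with 2 called (Foxc2 and Alx1). Their summed level was 1649.5 TPM in replicate 2, against 1161.2 TPM in replicate 1, led by Col3a1, Col1a1 and Col1a2, their median log2 ratio was 0.45, and no marker was at 0. Of 8 surface ectoderm genes, led by Krt8, Krt15 and Krt5, 7 were on the higher side and none was called by the exact binomial test or by edgeR. Of them 6 had an unadjusted exact binomial p under 0.05, and the list had a sum of 37.99 TPM in replicate 2, against 29.56 TPM in replicate 1.

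Of 10 floor plate and ventral midline genes, where Msx1 is also known, 5 were called higher (Foxa2, Corin, Ferd3l, Nkx6-1 and Spon1) and 1 was called lower, while Ntn1 was not called. By edgeR 4 were called higher, Nkx6-1 no longer among them (negative binomial exact adjusted p of 0.266). Foxa2, a floor plate determinant, was at 11.54 TPM in replicate 2, against 5.36 TPM in replicate 1, and the list's median log2 ratio was 0.58. The summed level was 133.48 TPM in replicate 2, against 100.18 TPM in replicate 1.

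Several genes of the forebrain and choroid plexus were called lower. Of 12 genes of the dorsal diencephalon and forebrain, 6 were called lower (Pax6, Olig3, Emx1, Tbr1, Barhl2 and Dlx1) and 1 higher, while Lhx2 was not called. By edgeR 5 were called lower, without Dlx1, and 0 higher. Their sum was 228.7 TPM in replicate 2, against 373.65 TPM in replicate 1 and their median log2 ratio −0.56. Olig3, a transcription factor of the thalamus and dorsal progenitors, was at 9.26 TPM in replicate 2, against 52.91 TPM in replicate 1. Of 5 expressed choroid plexus genes, Ttr, Kcne2 and Clic6 were called lower and Aqp1 higher, Folr1 was not called, and Kl was under 1 TPM. Aqp1 was not called by edgeR (negative binomial exact adjusted p of 0.171). Ttr, a secreted carrier protein of the choroid plexus, was at 13.79 TPM in replicate 2, against 38.70 TPM in replicate 1, and the list summed to 32.19 TPM in replicate 2, against 54.34 TPM in replicate 1. Without Ttr the sum was 18.4 TPM in replicate 2, against 15.64 TPM in replicate 1. Ttr is also made by yolk sac endoderm, and of 10 other serum protein and uptake genes of that tissue, a list set after values were seen, 4 reached a mean of 1 TPM. Of these, Afp, Apoa1 and Rbp4 were called lower by both tests and Trf was not called. Afp, the fetal serum protein gene, was at 0.09 TPM in replicate 2, against 11.90 TPM in replicate 1. The list summed to 18.14 TPM in replicate 2, against 41.53 TPM in replicate 1, Alb was at 0 in both libraries, and the part of yolk sac RNA in the Zic and Msx results was not tested.

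**Figure D5:**
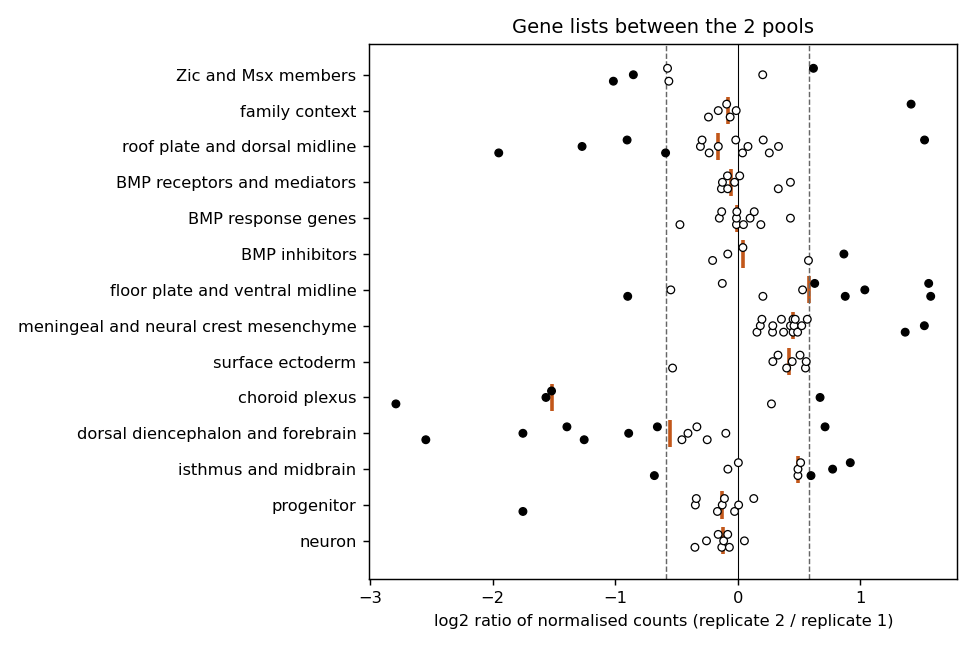
Log2 ratio of normalised counts, replicate 2 over replicate 1, for the 6 genes and each list (genes at a mean of at least 1 TPM); filled points were called, short vertical bars are list medians and dashed lines mark 1.5-fold. The medians of the mesenchyme, ectoderm, floor plate and isthmus lists lie above 0, and those of the forebrain and choroid plexus lists below it.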

How the data were processed

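RNA of E12.5 mouse midbrain was sequenced in 2 libraries, 1 per pool of embryos. Replicate 2 held 37381984 estimated counts, of which 36082574 fell on genes and 3.48% on spike-ins, and replicate 1 held 29430493, of which 28212913 fell on genes and 4.14% on spike-ins. Per the file headers, the authors gave each gene and transcript an expected count, an estimate that need not be whole. The deposited TPM values and posterior mean TPM values were normalised by the authors to effective length, which was the length minus 99. Bounds of the deposited TPM intervals were read as a signal, since the authors state no level for them in the sources used here. The deposited standard deviation of the posterior count was read as a score. The deposited isoform percent is each transcript's share of its gene. The assembly is mm10, per the labels. The sources used here do not give the aligner or the strand setting. The protocol lists a SMARTer Ultra Low kit manual, per the labels.

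Gene names and coordinates came from GENCODE M21, which matched 42462 of 43346 gene identifiers, and promoters from RefSeq (GRCm38.p6). Neither spike-ins nor 26248 short features entered library sizes or tests. Counts were rounded, with TMM factors of 1.005 (replicate 2) and 0.995 (replicate 1) from edgeR 4.0.16. Each of 18939 genes with at least 10 summed counts was tested with a two-sided exact binomial test and Benjamini-Hochberg adjustment. A call needed an adjusted p under 0.05, a mean of 1 TPM or more and a ratio of 1.5-fold or more, which gave 325 higher and 214 lower calls. Log2 ratios had 0.5 counts added. On simulated counts of 18954 genes for this comparison, with counting error only, recovery was 85% at a true 2-fold change and 96% at a 4-fold change, with 2 false calls. edgeR's negative binomial exact test used a common coefficient of variation of 0.0939, which rests on the same libraries. Scripts ran in R 4.3.3 and Python 3.11.15.

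The rule for naming took all 6 genes with their transcripts, each gene starting within 20 kb of them, every gene of the roof plate, BMP and related-family lists, and in other lists the 3 highest by TPM and those called. Some items that this rule takes are not reported here. Which of them are given with full values was decided with the values in view. Members and lists alike were chosen with earlier results of these data known. Alternatives were other size factors (DESeq2 1.42.0, total counts, spike-ins), thresholds, pseudocounts, TPM scales and leaving out a library.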

Additional observations from a re-analysis of the deposited data

How the results depend on the processing

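Every log2 ratio of the 6 genes kept its direction in the 36 alternatives run. The edgeR alternative reuses the main log2 ratio, and a pseudocount of 5 is small beside these counts, so neither could change a direction. DESeq2 size factors and total counts lay so close to TMM that they could not either. Msx1, with the smallest difference, had a log2 ratio of 0.202 and 0.219 with them, against 0.204. In 34 the outcome was the same as before. For the ratio of deposited TPM and the pseudocount, that outcome was only whether the ratio reached 1.5-fold, without a test. The exceptions were Msx2, whose log2 ratio of 0.62 was not called in the edgeR negative binomial test because its adjusted p was 0.115, and Zic4, at −0.58 without a call when spike-in totals set the library sizes, an alternative chosen after seeing the data. That scaling moved the median log2 ratio of all genes to 0.27, which turns list medians that were slightly below 0 positive, and called 1209 genes higher and 119 lower, 1328 in all. The share of calls that were higher was then 91.0%, against 60.3% with TMM. On this scale the log2 ratios were Zic1 at −0.29, Zic2 at −0.30, Zic5 at −0.74, Msx1 at 0.48 and Msx2 at 0.89.

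Only 1 of the 6, Zic5, was called at a 2-fold threshold. Of all genes, 201 were called by the negative binomial test, 213 at 2-fold and 206 at a mean TPM of at least 5, against 539. In the roof plate list 3 were called under each of these settings, against 5. Without division by length, the level differences were −0.83 for Zic1 minus Zic4, −0.98 for Zic2 minus Zic5 and 1.31 for Msx1 minus Msx2. Leaving out either library leaves no comparison between pools. No paired analysis was possible because the 2 libraries form 1 group. With 1 library per pool, variation among embryos, dissection and library preparation cannot be told apart.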
